A study of Mus musculus with 8 samples.

Results

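The endosomal Toll-like receptors and the proteins that fold, move and connect them were followed in MOPC tumours of hosts that lack 3 of these receptors. The members were Tlr3, Tlr7, Tlr8, Tlr9 and Tlr13, the chaperones Unc93b1 and Cnpy3, the adaptors Myd88 and Ticam1, and the kinase Irak4. Every probe set that the platform annotation gives to 1 of these symbols was taken, whatever its signal. This gave 12 probe sets for 9 of the 10 genes, among 45101 probe sets on the array and 18193 genes with a probe set of their own. For Irak4, the kinase that Myd88 recruits first, no probe set carried the symbol in the annotation used, alone or beside other symbols. MOPC is a mouse oropharyngeal carcinoma cell line, injected under the skin of C57BL/6 mice. The 4 groups were tumours of Tlr3/7/9-/- hosts (KO) and tumours of wild-type hosts (WT) at day 6 after injection, and tumours of KO and of WT hosts at day 4, with 2 arrays each. The injected cells were wild type in all groups, so a KO tumour still held carcinoma cells with intact receptor genes, and only the host cells carried the deletions. The hosts of the day 6 tumours were young adults, and the age of those of the day 4 tumours and the deleted part of each gene are not given in the sources used here.

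Endosomal Toll-like receptors read nucleic acids that a cell has taken up. TLR3 binds double-stranded RNA and signals through the adaptor TRIF, the product of Ticam1, while TLR7, TLR8, TLR9 and, in the mouse, TLR13 signal through MYD88. The receptors leave the endoplasmic reticulum with the membrane protein UNC93B1 and reach endosomes, where proteases cut them into their active form. Several of them, but not all, fold with the help of CNPY3, a partner of the chaperone gp96. In a tumour the receptors other than TLR3 are carried mostly by macrophages, dendritic cells and B cells.

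Of the members with a matched promoter, those with the clearest differences are shown here, Tlr3 for the comparison of the genotypes and Myd88 for the comparison of the days. Promoters of 8 of the 10 members were matched in a RefSeq table of assembly GRCm38.p6, and those of Tlr7 and Unc93b1 were not. Each window runs 5′ to 3′ along the gene, from 250 bases before the start site to 50 after it. Capitals mark a match to a kappaB consensus, the site of NF-kB, in Tlr3 (chr8:45410331-45410630, minus strand) and a match to the core of the interferon-stimulated response element, GAAANNGAAA, in Myd88 (chr9:119339969-119340268, minus strand).
Tlr3: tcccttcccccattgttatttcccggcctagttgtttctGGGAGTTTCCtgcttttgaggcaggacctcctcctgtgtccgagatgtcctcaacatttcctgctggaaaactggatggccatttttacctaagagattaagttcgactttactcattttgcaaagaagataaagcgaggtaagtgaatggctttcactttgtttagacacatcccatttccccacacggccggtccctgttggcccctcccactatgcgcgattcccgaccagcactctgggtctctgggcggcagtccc
Myd88: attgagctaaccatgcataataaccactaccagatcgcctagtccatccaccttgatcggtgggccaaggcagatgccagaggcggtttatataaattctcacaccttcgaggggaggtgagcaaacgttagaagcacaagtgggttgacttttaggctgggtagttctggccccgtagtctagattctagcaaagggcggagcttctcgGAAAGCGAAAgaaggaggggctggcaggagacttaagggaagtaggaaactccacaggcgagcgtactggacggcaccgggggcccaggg

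The capitals start at position -211 from the start site in Tlr3 and at -40 in Myd88, on the strand of the gene in both. Both strands of all 8 windows were searched for these motifs and for a core of the site of PU.1, GAGGAAGT, the myeloid factor. The third motif was found in Tlr9 only, 10 bases after the start site and on the opposite strand, and Tlr8, Tlr13, Cnpy3, Ticam1 and Irak4 held none of the 3. Of 32851 promoters of the same length, 5.8% held the kappaB consensus, 3.44% the interferon element core and 3.2% the PU.1 core.

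All values are linear signal intensities, which the authors made with MAS5 and scaled to a trimmed mean of 1000 on every array. Signals of different probe sets are not on a common scale, so the summed signal of a gene list, in which bright probe sets weigh most, is compared between arrays only, and a percentile among all probe sets is a rough mark of brightness. Arrays of the same group correlated at 0.941 to 0.952 (Spearman). KO day 6 replicate 2, KO day 4 replicate 2 and WT day 4 replicate 2 stood apart in the summed signal of 8 skeletal muscle genes, at 48330, 18560 and 141300, against 743.1 to 966.2 in the other 5 arrays. KO day 6 replicate 2 also had the highest summed signal of 8 skin genes, 24210, against 1520 to 3357 elsewhere. Xist, which is transcribed from the inactive X, had a signal of 5579.1 to 7121 at day 6 and of 44.6 to 142.1 at day 4, so that day and host sex cannot be told apart. This bears on every comparison of the days below, and also on Tlr7, Tlr8 and Tlr13 on the X chromosome. The day 6 arrays came from 1 mouse each. For those of day 4 no source used here says so, and the spread between the day 4 arrays may be technical.

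Tlr7, whose product senses single-stranded RNA, had the largest difference between the genotypes among the 12 probe sets. Its probe set 1422010_at had signals of 80.1 and 10.8 in KO tumours and 471.3 and 466.1 in WT tumours at day 6. At day 4 the signals were 70 and 25.2 in KO tumours and 382.9 and 673.4 in WT tumours. All 4 KO arrays lay below all 4 WT arrays, and the KO means of 45.5 ± 49 at day 6 and 47.6 ± 31.7 at day 4 stood against WT means of 469 ± 3.68 and 528 ± 205 (SD, n = 2 each).

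On the log2(signal + 16) scale, which understates the change of a low signal, Tlr7 1422010_at was 3.2 units lower in KO tumours over both days, that is 9.17-fold (log2 fold change -3.2, standard error 0.43, 95% interval -4.17 to -2.23). The adjusted p from limma was 0.107, so this difference did not pass the threshold of 0.05 over all 45037 probe sets tested, although it ranked 15 among them by p-value. An exact permutation test of the 4 KO against the 4 WT arrays gave a two-sided p = 0.0286, the smallest possible for 4 against 4 arrays. The permutations, here and below, did not keep arrays within their day, so they treat the days as interchangeable. The log2 fold change was -3.26 (standard error 0.61) at day 6 and -3.14 (standard error 0.61) at day 4. The difference between these effects, -0.12 with a 95% interval of -2.06 to 1.83, left room for a large difference in either direction. Without KO day 6 replicate 1, the array with the highest KO signal, Tlr7 was called in limma's test over both days (log2 fold change -3.66, adjusted p = 0.029), and without the 3 arrays with high muscle signals the log2 fold change was -2.27.

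The 2 other probe sets of Tlr7 did not show this pattern. Tlr7 1419848_x_at had signals of 119.8 and 52.4 in KO tumours and 71.8 and 69.4 in WT tumours at day 6, and 104.3 and 144.9 in KO tumours and 96.2 and 68.2 in WT tumours at day 4. Tlr7 1449640_at had signals of 80.3 and 69.6 in KO tumours and 36 and 98.6 in WT tumours at day 6, and 212.9 and 131.4 in KO tumours and 33.3 and 94.4 in WT tumours at day 4. KO and WT arrays overlapped on both probe sets over the 8 arrays and at day 6. At day 4 both KO arrays lay above both WT arrays on each of them. The log2 fold changes over both days were 0.34 (standard error 0.32, adjusted p = 0.892) and 0.78 (standard error 0.39, adjusted p = 0.773, both from limma), in the opposite direction to the first probe set. Their mean signals lay at the 42.1th and 41th percentile of all probe sets, and that of 1422010_at at the 51.1th. Probe sets that read an intact stretch of the gene are no check of a genotype, and where these lie relative to the deletion was not examined.

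Tlr3, the receptor for double-stranded RNA, was lower in KO than in WT arrays on both of its probe sets. Tlr3 1422781_at had signals of 146.7 and 117.6 in KO tumours and 351.2 and 352.9 in WT tumours at day 6, and 232.8 and 318.9 in KO tumours and 390.1 and 647 in WT tumours at day 4. Tlr3 1422782_s_at had signals of 338.6 and 224 in KO tumours and 639.5 and 543.9 in WT tumours at day 6, and 427.2 and 308.8 in KO tumours and 605.4 and 811.1 in WT tumours at day 4. On each probe set every KO array lay below every WT array.

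The log2 fold changes of Tlr3 over both days were -1.08 (standard error 0.21, 95% interval -1.57 to -0.6) and -0.99 (standard error 0.19, 95% interval -1.41 to -0.56), close to a 2.12-fold and a 1.98-fold lower signal. Neither passed limma's test over all probe sets (adjusted p = 0.376 and 0.356). The exact permutation p was 0.0286 for each, again the smallest possible for 4 against 4 arrays. At day 6 the log2 fold changes were -1.32 (standard error 0.3) and -1.05 (standard error 0.27), and at day 4 they were -0.85 (standard error 0.3) and -0.92 (standard error 0.27). Tlr3 thus kept a signal in KO tumours, at 132 ± 20.6 on 1422781_at at day 6 (SD, n = 2), against 352 ± 1.2 in WT tumours. Without the 3 arrays with high muscle signals the log2 fold change of 1422782_s_at over both days was -0.63.

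Tlr9, the receptor for unmethylated CpG DNA and the third gene deleted in the hosts, was not lower in KO tumours. Its only probe set, 1422083_at, had signals of 123.7 and 84.2 in KO tumours and 20.8 and 58.5 in WT tumours at day 6, and 128.5 and 102.2 in KO tumours and 137.6 and 34.2 in WT tumours at day 4. The genotypes did not overlap at day 6, where the KO arrays were higher, and overlapped at day 4. The log2 fold change over both days was 0.87 (standard error 0.42, 95% interval -0.07 to 1.82, adjusted p = 0.758 from limma). Tlr9 was the 1 member whose mean signal lay below the 40th percentile of all probe sets, at the 39.4th, and its position relative to the deletion was not examined.

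**Figure D1:**
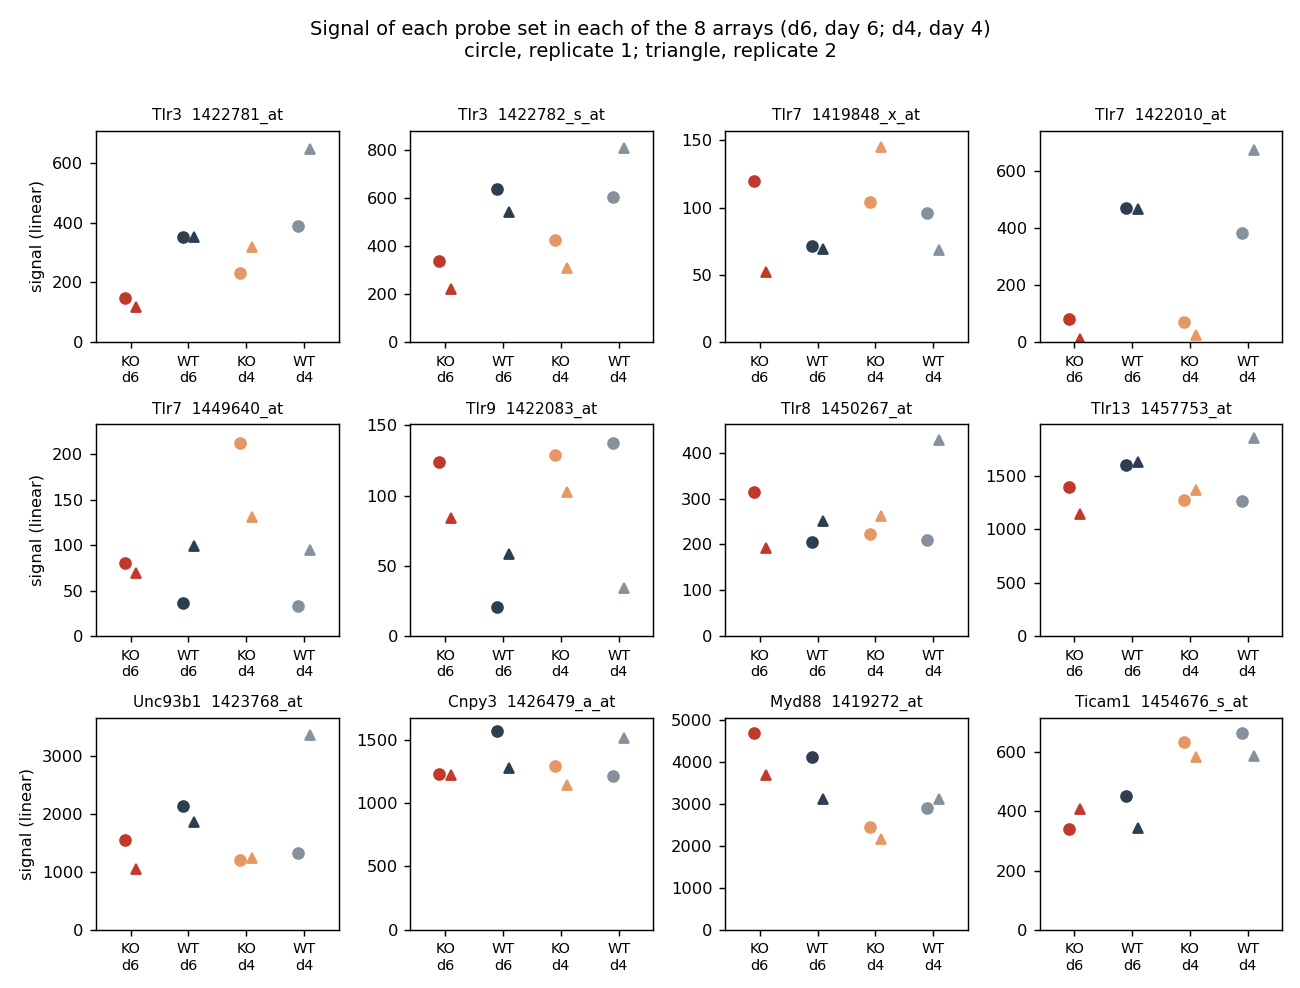
Signal (linear scale, vertical axes from 0) of each of the 12 probe sets in the 8 arrays, for KO and WT tumours at day 6 (d6) and at day 4 (d4), with a circle for replicate 1 and a triangle for replicate 2. On Tlr7 1422010_at the 4 KO arrays sit at 80.1 or below and the 4 WT arrays at 382.9 or above, while KO and WT arrays overlap on the other Tlr7 probe sets.

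Tlr8 and Tlr13 were not deleted. Tlr8, a relative of Tlr7 whose gene adjoins it on the X chromosome with 0 protein-coding genes between them, had signals of 314.7 and 192.2 in KO tumours and 205.2 and 251.5 in WT tumours at day 6, and 221.7 and 261.6 in KO tumours and 210.2 and 428.3 in WT tumours at day 4. The genotypes overlapped at both days. The log2 fold change over both days was -0.1 (standard error 0.26, 95% interval -0.69 to 0.5), and its sign was positive when either KO day 6 replicate 2 or WT day 4 replicate 2 was left out.

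Tlr13, the mouse receptor for bacterial ribosomal RNA, had signals of 1392.7 and 1140 in KO tumours and 1600.3 and 1630.5 in WT tumours at day 6, and 1275.6 and 1363.8 in KO tumours and 1267.5 and 1850.5 in WT tumours at day 4. The KO arrays lay below the WT arrays at day 6, as for 20.7% of all probe sets, and overlapped with them at day 4. Its log2 fold change over both days was -0.28 (standard error 0.13, 95% interval -0.58 to 0.02, adjusted p = 0.752 from limma), so a fall as deep as that of Tlr3 lay outside this interval.

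Unc93b1, the carrier of the endosomal receptors, was lower in KO arrays at each day. Its probe set 1423768_at had signals of 1552.1 and 1051.3 in KO tumours and 2137.4 and 1862.5 in WT tumours at day 6, and 1209.7 and 1230.9 in KO tumours and 1323.9 and 3359.1 in WT tumours at day 4. The groups did not overlap within either day, but WT day 4 replicate 1 fell below KO day 6 replicate 1. The log2 fold change over both days was -0.71 (standard error 0.25, 95% interval -1.28 to -0.14, adjusted p = 0.652 from limma), and the exact permutation p was 0.0571. The value rested in part on WT day 4 replicate 2, the array with the highest muscle signal, since without it the log2 fold change was -0.38 over both days and -0.12, in place of -0.78, at day 4. At day 6 it was -0.64 (standard error 0.36).

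Cnpy3, the folding partner, had signals of 1229.2 and 1221.2 in KO tumours and 1568.8 and 1275.2 in WT tumours at day 6, and 1290.7 and 1142.8 in KO tumours and 1211.8 and 1508.9 in WT tumours at day 4. The groups overlapped at day 4. Its log2 fold change over both days was -0.18 with a 95% interval of -0.44 to 0.08, the narrowest of the 12 intervals.

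Across the members, 0 of the 12 probe sets were called between the genotypes at an adjusted p under 0.05 in limma at day 6, at day 4 or over both days. Of all 45037 probe sets, 0.00444% were called at day 6, 0.00444% at day 4 and 0.0155% over both days. Each day had 2 calls, of which 50% were lower in KO tumours, and centring each array on its median gave 66.7% at day 6 and 25% at day 4. At an unadjusted p under 0.05 in limma there were 3 of the 12 probe sets at day 6, 5 at day 4 and 4 over both days. Of all probe sets the shares were 6.1%, 5.91% and 6.85%. At day 6 these were both of Tlr3 and Tlr7 1422010_at. At day 4 they were joined by Myd88 and by Tlr7 1449640_at, which was higher in KO tumours, and over both days by Unc93b1. The KO arrays lay below the WT arrays at day 6 for 6 of the 12 probe sets and for 20.7% of all probe sets. At day 4 they did so for 5 of the 12 and for 17.6% of all. Within both days this held for 4 of the 12 probe sets, both of Tlr3, Tlr7 1422010_at and Unc93b1, and for 4.09% of all probe sets. Over all 8 arrays together the groups were apart for both probe sets of Tlr3 and for Tlr7 1422010_at, and for 1.55% of all probe sets. The median log2 fold change over both days was -0.14 for the 12 member probe sets and -0.02 for all probe sets, with 9 of the 12 and 53.8% of all probe sets below 0.

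**Figure D2:**
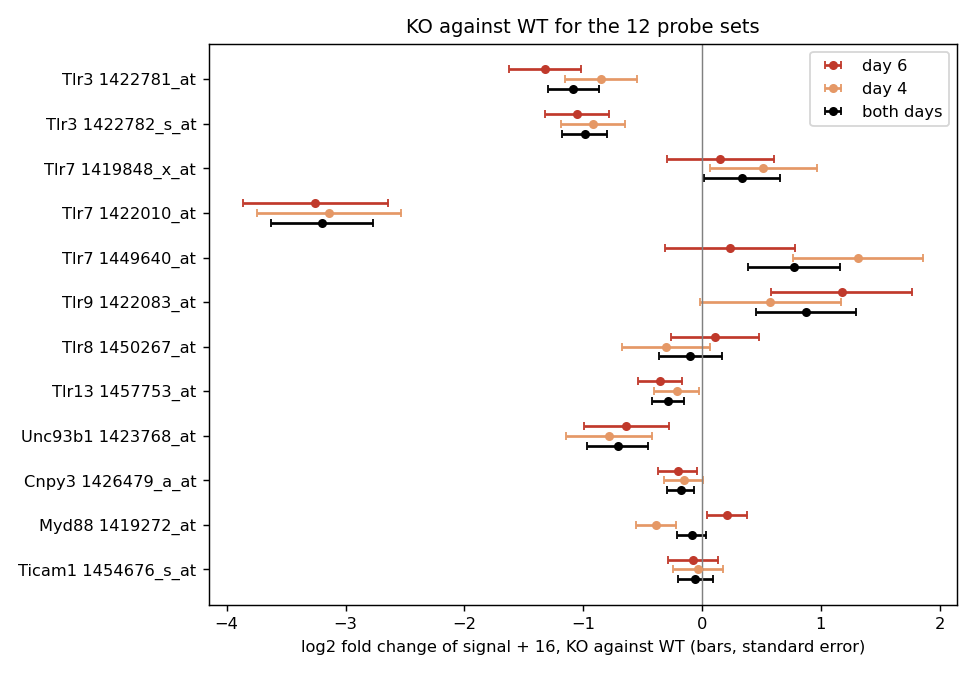
Log2 fold change of signal + 16, KO against WT (horizontal axis), for the 12 probe sets (rows) at day 6, at day 4 and over both days, with bars of 1 standard error. Tlr7 1422010_at lies near -3.2 and both Tlr3 probe sets near -1 at each day, and the other 2 Tlr7 probe sets and Tlr9 lie above 0.

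Macrophages carry many of these receptors, and their marker genes were lower in KO arrays. The summed signal of 10 macrophage marker genes was 77750 to 100800 in KO tumours and 105500 to 140800 in WT tumours, with no overlap. Of the 10 genes, 9 were lower in KO tumours over both days with a median log2 fold change of -0.45, against -0.02 for all probe sets, and 0 were called. Adgre1, which encodes the macrophage antigen F4/80, had the lowest value at -0.74 (standard error 0.11, adjusted p = 0.199 from limma), and Cd163, a haemoglobin scavenger receptor, the highest at 0.02 (standard error 0.23). The list was lower at each day by its median, -0.35 with 7 of 10 genes lower at day 6 and -0.56 with 9 of 10 lower at day 4. Cd163 was at 1 at day 6 and at -0.95 at day 4 (standard error 0.32 each), and the difference of these effects, 1.95, was not called (unadjusted p = 0.00188, adjusted p = 0.987 from limma). In whole tumours, fewer macrophages and less RNA per macrophage cannot be told apart.

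The part of macrophage content in the receptor differences was not tested, but the values can be set side by side. Taking the median deviation of the 10 macrophage genes off each array, chosen after the values were seen, moves the KO minus WT difference of every probe set up by the same amount. It left Tlr7 1422010_at at -2.49 to -0.62 in KO arrays and 1.24 to 1.59 in WT arrays on the log2 scale. The KO minus WT difference of Tlr7 1422010_at was then -2.73, in place of -3.2. For Tlr3 it was -0.61 and -0.52, in place of -1.08 and -0.99, and the KO and WT arrays then overlapped on both Tlr3 probe sets. For Unc93b1 it was -0.24, in place of -0.71.

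**Figure D3:**
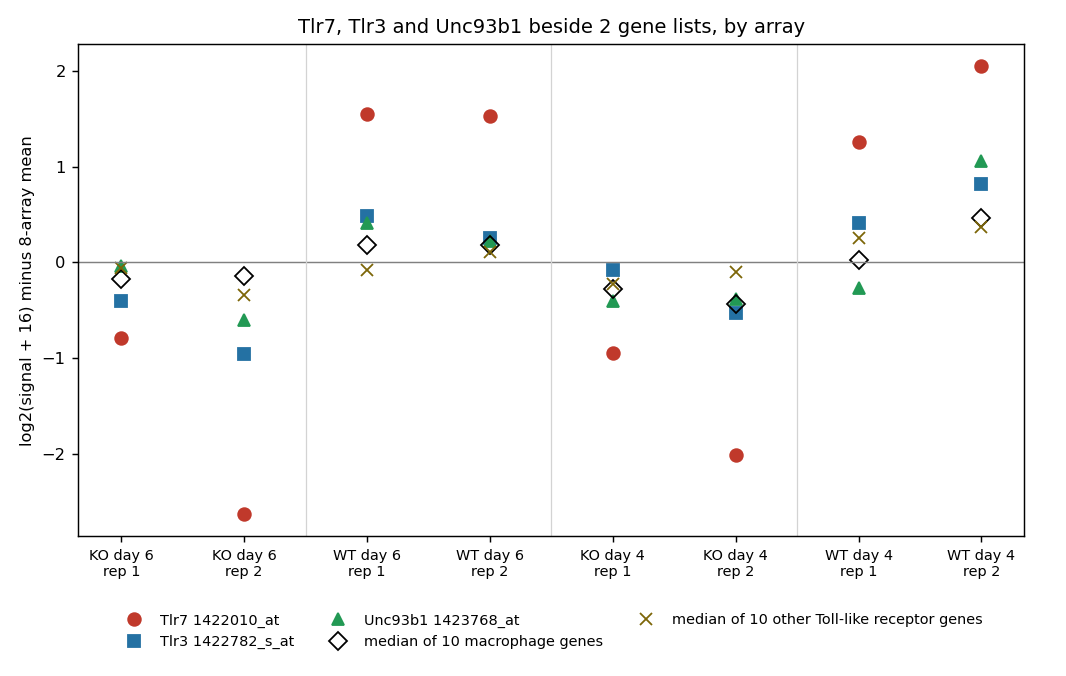
Deviation of log2(signal + 16) from the mean of the 8 arrays (vertical axis) in each array, for Tlr7 1422010_at, Tlr3 1422782_s_at, Unc93b1, and the medians of 10 macrophage genes and of 10 other Toll-like receptor and co-receptor genes. The macrophage median lies below 0 in the 4 KO arrays and above 0 in the 4 WT arrays, and Tlr7 departs from 0 further than it in every array.

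Of the other cell types known for these receptors, conventional dendritic cells and B cells also had lower summed signals in KO arrays within each day. The 7 genes of conventional dendritic cells summed to 4258 and 3341 in KO tumours and 6554 and 5618 in WT tumours at day 6, and to 2863 and 3187 in KO tumours and 3557 and 7503 in WT tumours at day 4. Their median log2 fold change over both days was -0.49, with 6 of 7 genes lower and 1 called, beside -0.45 for the macrophage genes. The brightest gene in this sum was Clec10a, with 1469.9 to 2512.7 in KO and 1721.4 to 4577.6 in WT tumours, which overlapped. The 6 B cell genes summed to 359.9 and 318.6 in KO tumours and 545.7 and 658.6 in WT tumours at day 6, and to 620.5 and 492.3 in KO tumours and 675.1 and 640 in WT tumours at day 4. Over both days their median log2 fold change was -0.35, with 4 of 6 genes lower and 0 called. At day 4 alone only 3 of 6 B cell genes were lower (median -0.14), and the genes ran from -0.86 for Pax5 to 1.14 for Fcer2a.

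Plasmacytoid dendritic cells, which carry TLR7 and TLR9, did not show this. Their 8 genes, among them Tcf4, a factor found in other cells as well, summed to 8243 to 9441 in KO tumours and 7165 to 10570 in WT tumours, with a median log2 fold change of 0.07 and 2 of 8 genes lower. Siglech, the marker most particular to these cells, had 33.1 to 136.8 in KO tumours and 18.6 to 134.5 in WT tumours. Some genes of these lists had very low signals. Cd79a of the B cell list had 6.8 to 29.3 in KO and 4.2 to 13.9 in WT tumours. Pacsin1 of the plasmacytoid list had 7.2 to 130.2 in KO and 8.8 to 82.4 in WT tumours. Beyond these cell types, 7 T cell genes had a median log2 fold change of -0.33 over both days, with 5 of 7 lower. The median of 6 neutrophil genes was 0.22, with 2 of 6 lower. It was 0.68 with 0 of 6 lower at day 6 and -0.33 with 4 of 6 lower at day 4. In both lists 0 genes were called between the genotypes. The part of any of these cell types in the receptor differences was not tested.

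Cd209a, the gene of a lectin of dendritic cells and the 1 gene of these lists called between the genotypes, fell in KO tumours. It had signals of 52.1 and 15.1 in KO tumours and 965.3 and 770.9 in WT tumours at day 6, and 88.6 and 115.5 in KO tumours and 564.1 and 863.1 in WT tumours at day 4. The genotypes were wide apart at both days. The log2 fold change was -3.43 over both days (standard error 0.29, adjusted p = 0.0078 from limma) and -4.26 at day 6 (standard error 0.41, adjusted p = 0.0452 from limma). At day 4 it was -2.61 and did not pass (adjusted p = 0.407 from limma). The call over both days held under 12 of 19 alternatives. It was lost with no variance trend (adjusted p = 0.157), with the methods' t-test (0.603), without either WT day 6 array (adjusted p = 0.101 and 0.0976 from limma), without either KO day 4 array (0.115 and 0.101) and without the 3 arrays with high muscle signals (0.611). At day 6 it held under 7 of 19 alternatives, with adjusted p-values from 0.00957 to 0.91. It was lost with quantile normalization (0.0686), a pseudocount of 1 (0.0598), the compared groups alone (0.309), no variance trend (0.305) and the methods' t-test (0.833), without the 3 arrays with high muscle signals (0.91), and without KO day 6 replicate 2 (0.16), either WT day 6 array (0.623 and 0.357) or either KO day 4 array (0.223 and 0.229).

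The remaining Toll-like receptors and their co-receptors, most of which sit at the cell surface, ran the same way without a call. All 10 genes of the list, Tlr1, Tlr2, Tlr4, Tlr5, Tlr6, Tlr12, Cd14, Ly96, Cd180 and Ly86, were lower in KO tumours over both days, with a median log2 fold change of -0.41 beside -0.02 for all probe sets, and 0 passed limma's test. At day 6 their median was -0.27 with 9 of 10 lower, and at day 4 it was -0.59 with 10 of 10 lower. Their summed signal was 12210 to 15380 in KO tumours and 16880 to 23050 in WT tumours. Tlr5, the receptor for flagellin, had the lowest log2 fold change at -0.71 (standard error 0.2), and Tlr12, which unlike the others lies in endosomes and recognises profilin in the mouse, the highest at -0.14 (standard error 0.34).

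The genes that carry and cut the endosomal receptors had values near 0. Of 12 genes of receptor trafficking and processing, such as gp96, adaptor protein 3 and the cathepsins, 0 were called and 7 were lower over both days, with a median log2 fold change of -0.11. The values ran from -0.45 for Ifi30, a thiol reductase of lysosomes (standard error 0.15), to 0.1 for Lrrc59, a partner of UNC93B1 (standard error 0.09). The nucleases that degrade the receptors' ligands had 6 of 8 genes measured, of which 0 were called and 4 were lower, with a median of -0.4. Pld4, a lysosomal exonuclease of single-stranded DNA, had the lowest value at -0.84 (standard error 0.23) and Dnase1l3, a nuclease of extracellular DNA, the highest at 0.6 (standard error 0.3).

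Downstream of the receptors no gene was called between the genotypes. Of 25 genes of adaptors, kinases and transcription factors, 20 were measured, 0 were called and 12 were lower in KO tumours over both days, with a median log2 fold change of -0.01. Irak3, a brake on the pathway, had the lowest value at -0.54 (standard error 0.14), and Irak2, a kinase that acts after Irak4, the highest at 0.25 (standard error 0.09).

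For the genes of nucleic acid sensing in the cytosol and for the target genes the medians at the 2 days had opposite signs, although most of the groups overlapped by array. This sensing does not depend on endosomes, and its 9 genes are sensors and adaptors. They had a median of 0.25 with 2 of 9 lower in KO tumours at day 6, and of -0.28 with 8 of 9 lower at day 4. Over both days their median was 0.02, between -0.38 for Ifih1, the gene of MDA5 (standard error 0.24), and 0.19 for Sting1 (standard error 0.13). The 15 measured of 16 interferon and NF-kB target genes had a median of 0.15 with 6 of 15 lower at day 6, and of -0.53 with 13 of 15 lower at day 4. Over both days their median was -0.28, between -0.95 for Ccl5, a chemokine (standard error 0.22), and 0.21 for Nfkbia, the gene of an inhibitor of NF-kB (standard error 0.17). At each day, over both days and in the difference of the effects, 0 genes of either list were called. The median deviation of the 9 cytosolic sensing genes was 0.61 and 0.09 in KO and 0.16 and 0.03 in WT arrays at day 6. At day 4 it was -0.29 and -0.47 in KO and -0.34 and 0.11 in WT arrays. That of the target genes was 0.42 and -0.32 in KO and -0.05 and 0.17 in WT arrays at day 6. Only at day 4 were the genotypes apart for the target genes, at -0.34 and -0.32 against 0.26 and 0.18.

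Ifit1, Ifit3 and Rsad2, antiviral genes induced by interferons, were named after their values were seen. Among the target genes, they had the widest differences between the KO effects at day 6 and at day 4. Rsad2 had signals of 3055.8 and 1458.7 in KO tumours and 1631.9 and 2223.3 in WT tumours at day 6, and 861.9 and 698.9 in KO tumours and 2948.4 and 2292.2 in WT tumours at day 4. The genotypes overlapped at day 6 and were apart at day 4. The log2 fold changes at day 4 were -1.72 for Rsad2, -1.62 for Ifit1 and -1.3 for Ifit3 (adjusted p = 0.552, 0.631 and 0.587), and at day 6 they were 0.15, 0.24 and 0.14. The differences of the effects were 1.87, 1.86 and 1.44, with unadjusted p-values of 0.00206, 0.00565 and 0.00224 and an adjusted p of 0.987 for each (all from limma).

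Among the members, both adaptors separated all 8 arrays by day, which cannot be told apart from host sex here. Myd88, the adaptor of all these receptors but TLR3, had signals of 4669.4 and 3671 at day 6 and 2432.2 and 2169 at day 4 in KO tumours. In WT tumours it had 4109.8 and 3121.1 at day 6 and 2904.6 and 3103.8 at day 4. All 4 day 6 arrays lay above all 4 day 4 arrays, a pattern that 7.78% of all probe sets had. In WT tumours the gap was narrow, with 3121.1 at day 6 against 3103.8 at day 4.

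Myd88 rose in KO tumours at day 6 against day 4, with a log2 fold change of 0.85 (standard error 0.17, 95% interval 0.47 to 1.23, adjusted p = 0.0498 from limma). It was the 1 member called in this comparison, in which 1.37% of all probe sets were called. In WT tumours the log2 fold change of Myd88 was 0.25 (standard error 0.17, 95% interval -0.13 to 0.63, adjusted p = 0.519), and 0 members and 1.47% of all probe sets were called. The call in KO tumours was narrow, and it was lost with quantile normalization (adjusted p = 0.0601), with the 3 arrays of high muscle signal left out (adjusted p = 0.522) and without any 1 of the 4 KO arrays (adjusted p = 0.107 to 0.339, all from limma). The interaction of genotype and day was 0.59 for Myd88 (standard error 0.24, unadjusted p = 0.0341, adjusted p = 0.987 from limma). In this comparison 0 members and 0% of all probe sets were called, with 2181 probe sets and 1 member, Myd88, at an unadjusted p under 0.05. Over both days Myd88 did not differ beyond its error between KO and WT tumours (log2 fold change -0.09, 95% interval -0.36 to 0.18), and at day 4 both KO arrays lay below both WT arrays (log2 fold change -0.38, adjusted p = 0.837 from limma).

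Ticam1, the adaptor of TLR3, ran the other way. Its probe set 1454676_s_at had signals of 341.8 and 406.5 at day 6 and 633.1 and 585 at day 4 in KO tumours, and 451 and 344.2 at day 6 and 664.7 and 585.6 at day 4 in WT tumours. All 4 day 6 arrays lay below all 4 day 4 arrays, as for 8.62% of all probe sets. The log2 fold change of day 6 against day 4 was -0.68 in KO tumours (standard error 0.21, adjusted p = 0.136) and -0.64 in WT tumours (standard error 0.21, adjusted p = 0.166, both from limma), and neither passed. Between the genotypes its log2 fold change over both days was -0.06 (95% interval -0.39 to 0.28), with the sign turned to 0.01 when each array was centred on its median.

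The scaling of the arrays bears on these comparisons of days. Centring each array on its median moved the log2 fold changes of day 6 against day 4 by 0.17 in KO and 0.18 in WT tumours, which put Myd88 at 1.01 and Ticam1 at -0.52 in KO tumours. With centring, 18% of the calls in KO tumours were lower at day 6, in place of 46.2%, and 10.3% of those in WT tumours, in place of 29.6%.

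**Figure D4:**
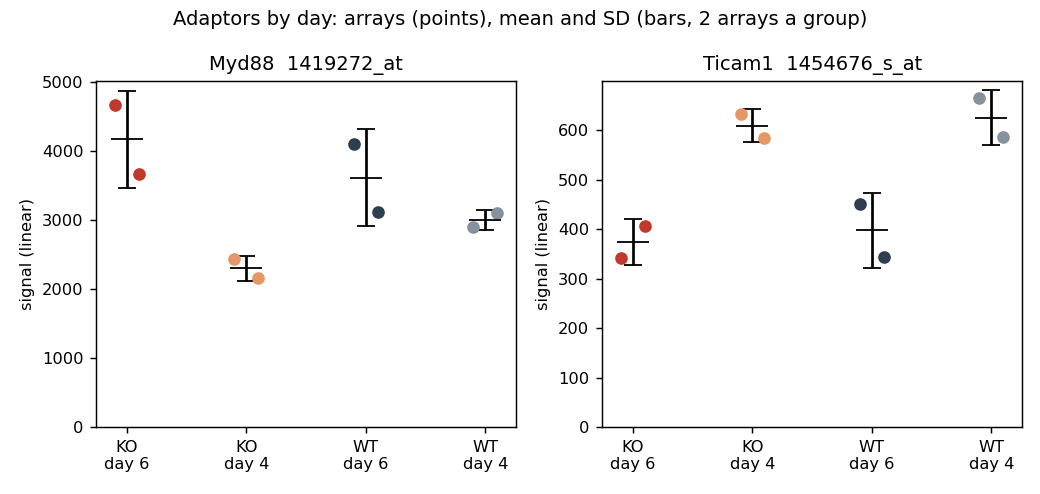
Signal (linear scale, from 0) of Myd88 1419272_at and Ticam1 1454676_s_at in KO and WT tumours at day 6 and at day 4, with a point for each array and bars for the mean and SD of 2 arrays. Both genes separate the days in each genotype, Myd88 with higher and Ticam1 with lower signals at day 6.

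Of the other pathway genes, Samhd1, Sting1 and Cxcl10 rose at day 6 against day 4 in KO tumours. Samhd1, the gene of an enzyme that breaks down deoxynucleotides, had 6600 and 3676 at day 6 and 2047.3 and 1888.8 at day 4 in KO tumours (log2 fold change 1.32, standard error 0.23, adjusted p = 0.0352 from limma). Sting1, the adaptor of cytosolic DNA sensing, had 3495.3 and 3240.4 at day 6 and 1773 and 1427.2 at day 4 (log2 fold change 1.07, standard error 0.18, adjusted p = 0.0333 from limma). Cxcl10, a chemokine induced by interferons, had 7055.7 and 1408.9 at day 6 and 256.9 and 232.1 at day 4 (log2 fold change 3.61, standard error 0.58, adjusted p = 0.0289 from limma). In WT tumours the 3 genes were higher at day 6 too, without a call. Samhd1 had 3188.9 and 3130.2 at day 6 and 1989.7 and 2401.5 at day 4 in WT tumours (log2 fold change 0.53, adjusted p = 0.312), Sting1 had 2692.1 and 2209.6 at day 6 and 1434.6 and 1980.4 at day 4 (0.53, adjusted p = 0.198), and Cxcl10 had 3967.1 and 2636.4 at day 6 and 777.6 and 619.2 at day 4 (2.19, adjusted p = 0.102, all from limma). Day 6 and day 4 arrays did not overlap in either genotype, and the difference of the effects was not called for any of the 3 (adjusted p = 0.987 each from limma). Each of these 3 calls in KO tumours was lost without either KO day 4 array and without the 3 arrays with high muscle signals, that of Sting1 also without either KO day 6 array, and that of Samhd1 also without KO day 6 replicate 1 or either WT day 6 array. In KO tumours Cxcl10 came to a log2 fold change of 2.45 without KO day 6 replicate 1 and 4.76 without KO day 6 replicate 2. In WT tumours Irak3 fell at day 6, with 469.8 and 523 at day 6 and 898 and 1156.3 at day 4 (log2 fold change -1.02, standard error 0.19, adjusted p = 0.0415 from limma), and this call was lost without any 1 of the 8 arrays. In KO tumours Irak3 had 398.5 and 338.6 at day 6 and 620.3 and 661.4 at day 4, lower at day 6 without a call (log2 fold change -0.78, adjusted p = 0.0842 from limma).

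The genes whose pattern over the 8 arrays was most like that of a deleted receptor were listed by Pearson correlation of log2 signals, as a description only, since the arrays share genotype, day and tissue content. For Tlr3 1422782_s_at these were Mir670hg (r = 0.976), Adcy5 (r = 0.963) and Tlr7 itself (r = 0.963). For Tlr7 1422010_at they were B4galt6 (r = 0.988), Cd300ld (r = 0.987) and Unk (r = 0.979). Cd300ld, a receptor of myeloid cells, had signals of 768.8 and 302.3 in KO tumours and 1771.4 and 1743 in WT tumours at day 6, and 528.2 and 518.8 in KO tumours and 1663.8 and 2199.8 in WT tumours at day 4, with no overlap. For Tlr9, whose signals were low, they were Tubb3 (r = 0.979), Septin7 (r = 0.97) and Cbfb (r = 0.944).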

How the data were processed

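The deposited file holds 1 signal intensity per probe set and array, a linear value that the authors made with MAS5, as the submitters' processing notes name it, from an Affymetrix 3′ expression array. The 2% trimmed mean was 1000 on every array and the medians were 133.2 to 175.2. Detection calls were not used, and the number of arrays limits the precision. Of 45101 probe sets, 64 controls were left out, and 34958 had 1 symbol in the platform annotation, 932 several and 9211 none. Of the 34958, 34754 matched a RefSeq table of GRCm38.p6 by Entrez identifier.

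Values were log2(signal + 16). All 45037 probe sets were fitted, with no filter, by limma 3.58.1 in R 4.3.3 as 4 groups, with a variance trend and Benjamini-Hochberg adjustment over all of them. A probe set was called at an adjusted p under 0.05. The fit was tested on simulated data. The members and the 16 gene lists were chosen with earlier results of these data known. Every member probe set is described. A listed gene is taken at its brightest probe set. In the pathway and immune cell lists the genes named are those called or, where a pathway list had none over both days, its highest and lowest. Other lists also had calls at day 6 against day 4, alike in KO and in WT tumours. Of 8 carcinoma epithelial genes 1 was called higher, and of 4 X inactivation and Y chromosome genes 1 was called higher and 3 lower. Genes alike in pattern are the 3 with the highest correlation. Cd300ld's values are given as a choice made after they were seen.

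Alternatives were quantile normalization, median centring, pseudocounts of 1 and 64, filters at the 40th and 60th percentile, 1 probe set per gene, a fit to the 2 groups compared, no variance trend, a replicate block, the methods' t-test, leaving out each array and leaving out 3 arrays with high muscle signals, which was added after the data were seen.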

Additional observations from a re-analysis of the deposited data

How the results depend on the processing

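Over 20 alternatives, 0 members were called between the genotypes at day 6, at day 4 or, over 18, in the difference of the KO effects, and 0 in WT tumours between the days. Over both days the count of members called between the genotypes ran from 0 to 1 when 1 array was left out, the 1 being Tlr7 1422010_at. The count in KO tumours between the days, 1 for Myd88, was 0 with quantile normalization, a pseudocount of 64, no variance trend, the replicate block, the methods' t-test and without the 3 arrays with high muscle signals, and 0 to 1 when 1 array was left out. Its adjusted p ran from 0.0293 to 0.522, and the cause of each loss was not tested.

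The deviations of replicate 1 correlated weakly between groups, at -0.027 to 0.095. This does not show that arrays with the same replicate number share nothing. The arrays with high muscle signals were all replicate 2. Their median deviations of the skeletal muscle genes were 3.54 in KO day 6, 1.99 in KO day 4 and 5.47 in WT day 4. In replicate 1 of these groups they were -2.31, -2.83 and -2.43. The WT day 6 replicates were alike, at -1.87 and -1.81. What the replicate numbers share was not tested. With the replicate block 319 probe sets in place of 619 were called in KO tumours between the days, Myd88 had an adjusted p of 0.0534, Samhd1 0.0517 and Sting1 0.0561, Irak3 in WT tumours 0.0673 and Cd209a at day 6 0.0903, all from limma. The calls over all probe sets ran from 1 to 1607 in KO and from 1 to 1702 in WT tumours between the days, from 0 to 26 between the genotypes at day 6, from 0 to 11 at day 4, from 0 to 28 over both days and from 0 to 7 for the difference of the effects.

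The sign of a few fold changes near 0 between the genotypes over both days turned. Without the 3 arrays with high muscle signals Tlr8 was at 0.257, Myd88 at 0.0633, Ifih1 at 0.105 and Tlr12 at 0.299, and with median centring Ticam1 was at 0.0144. Leaving out 1 array gave -0.34 to 0.15 for Tlr8, -0.15 to 0.0376 for Ticam1, -0.187 to 0.0108 for Myd88, -0.365 to 0.0877 for Tlr12 and -0.17 to 0.22 for Cd163. Of 913 single fold changes under an alternative, 832 kept their direction and their side of the threshold, 64 lost a call, 1 gained one and 16 turned in sign. Most of the 913 were not called in the main fit, and for them the same side means staying uncalled. The calls themselves held less often. In KO tumours between the days they held under 10 of 20 alternatives for Myd88, 11 for Samhd1, 12 for Sting1 and 15 for Cxcl10. That of Irak3 in WT tumours held under 7 of 20. The low signals of Tlr9 and of 2 of the 3 Tlr7 probe sets limit what these arrays can show of them.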
